A study of Rattus norvegicus with 10 samples.

Results

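Cytosolic ribosomal proteins are the protein part of the 60S and 40S subunits that translate nuclear-encoded messages. Every probe set of the deposited value table was taken whose platform annotation gave a single symbol made of Rpl or Rps, a number and at most 1 trailing letter, or the symbol Rplp0, Rplp1, Rplp2 or Rpsa. Ribosomal S6 kinases and pseudogenes were left out. The rule found 50 probe sets of 44 genes among 31042 probe sets and 14217 genes with a single symbol. Of these genes, 30 belong to the 60S and 14 to the 40S subunit. No probe set with the single symbol Rplp1, Rplp2, Rps27a, Rpl10l or Rpl39l was found, and another 33 probe sets that carry a ribosomal protein symbol beside other symbols were outside the rule.

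The data are 10 Affymetrix arrays of liver RNA from male Wistar rats, 2 arrays for each of 5 diets. For 12 weeks the animals ate chow or 1 of 4 high-fat diets, in which lard, olive oil, coconut fat or a fish oil supplied 42% of the energy; the series' design names the fish oil as that of cod liver. All were fasted overnight before death, so no array shows the fed state, and chow differed from the other diets in its fat content as well as its fat source. Nothing in the labels says whether each array was 1 animal or a pool; p-values here therefore measure only the spread between these samples, and 2 arrays per diet limit the precision. The liver pieces hold several cell types, and fewer cells of a type cannot be told apart from less RNA per cell.

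A ribosome needs its proteins in near-equal numbers, and cells keep their synthesis in step largely through translation. Messages for these proteins start with a C followed by a run of pyrimidines, the 5′ terminal oligopyrimidine (5′ TOP) motif, which lets mTOR signalling through LARP1 hold them back from or release them to translation when nutrients are scarce or plentiful. In liver, fasting lowers mTOR activity, and the amount of a message on an array says nothing about how strongly it is translated.

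Windows at the annotated gene starts were searched for that motif, and those of genes on which the results turn are printed here, with others that carry it. Of the 44 genes, 39 had a window in the RefSeq table of the GRCr8 build; Rpl7, Rpl23a, Rpl27, Rpl30 and Rps29 had none. Each line runs from 10 bases before the annotated start to the first 20 bases from it, on the gene's own strand, and capitals mark the longest run of C and T. The first 5 fulfil the motif as searched here, a C at the annotated start with an unbroken run of at least 5 C or T counted from that base. In those 5 windows the whole run opens before the annotated start.
Rplp0 (chr12:46718371-46718400, minus strand): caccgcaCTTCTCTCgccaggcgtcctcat
Rps15 (chr7:10068096-10068125, minus strand): acaccgCTTCCTTTTCCCagcagccgccaa
Rpl35 (chr3:43165902-43165931, minus strand): CTTCCTCTTTCTCTCgaaccgggcggcctc
Rpl37a (chr9:81748081-81748110, plus strand): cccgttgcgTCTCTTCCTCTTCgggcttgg
Rpl14 (chr8:129163610-129163639, plus strand): ggCCCTCTCCCTTCTCgctgagcgccgcca
Rpl12 (chr3:36661930-36661959, plus strand): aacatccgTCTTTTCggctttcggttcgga
Rpl3 (chr7:113507971-113508000, minus strand): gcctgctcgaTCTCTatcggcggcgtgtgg
Rpl6 (chr12:41011671-41011700, minus strand): TTacatcactagatggcgggtgaaaaggcg
Rps6 (chr5:106420521-106420550, minus strand): CTCCTaggcggtcggctgtgtcaagatgaa
Rps27l (chr8:76443648-76443677, plus strand): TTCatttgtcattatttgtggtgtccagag

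The motif stood at the start of 12 of 39 ribosomal protein genes (30.8%), against 881 of 33469 windows in the whole table (2.63%) and 2 of 62 mitochondrial ribosomal protein genes (3.23%). Their longest run of C and T had a median of 9 bases, against 4 over all windows. A search of the whole 300-base window for CTTTCC on both strands found it in 17 of 39 ribosomal protein genes (43.6%) and in 26.4% of all windows; some of these matches lie inside the run itself. The count depends on the annotated start. In Rpl12, Rpl3, Rpl27a, Rps9, Rps23 and Rps24 that base is a T, with at least 5 unbroken C or T counted from it. None of these windows was counted, though those of Rps23 and Rpl27a hold runs of 21 and 20 bases. Rps27l, a copy of Rps27 known as a p53 target, has a longest run of 3 bases in its window.

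Most ribosomal protein messages gave bright signals on all 10 arrays. Signals are the deposited MAS5 values, which rank an individual probe set across arrays but not different probe sets against each other. A gene was represented by its brightest probe set, and 38 of 44 genes had a mean signal over 1000, from 1320 to 7130. The probe set of Rps29, a small zinc-binding protein of the 40S subunit, had a mean signal of 7133, and those of Rpl26, Rps23 and Rpl7 had 4450, 3841 and 3778. The dimmest probe sets were Rpl14's second one (17.8) and those of Rpl3l (8.45), Rpl28 (7.56) and Rpl30 (3.11). These signals give no order of message amounts between genes. Rpl30 stayed under the highest signal of the bacterial trp controls, 12.8, on all 10 arrays. Those 4 probe sets fell below the filter on the mean log2 signal, equal to a signal of 17.8, which left 46 probe sets of 41 genes in the tests, 27 of the 60S and 14 of the 40S subunit. Rpl28 and Rpl30 are constituents of every ribosome, and no other probe set of the rule represents them. The only probe set of Rps13 stayed in the tests at a mean signal of 20.7, with 6.8 to 35.7 across the arrays. Rpl3l, a form of Rpl3 restricted to heart and skeletal muscle, lay between 1.5 and 20.2 across the arrays.

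**Figure D1:**
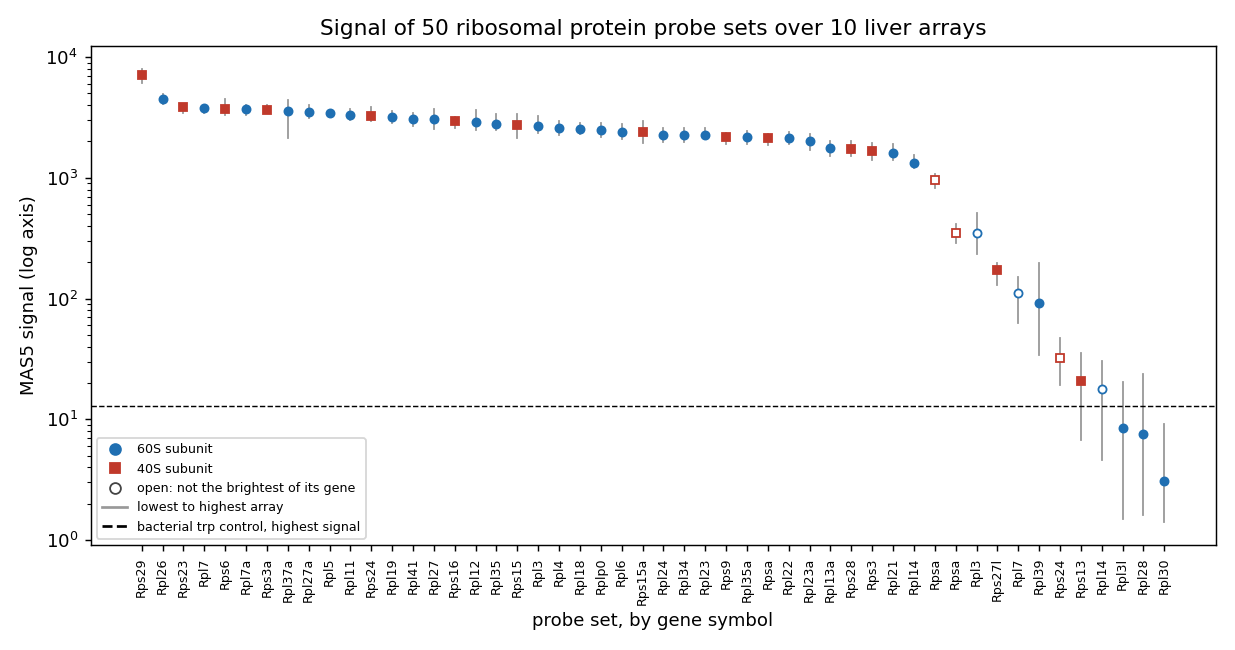
Mean MAS5 signal (log axis) of each of the 50 ribosomal protein probe sets, with a line from the lowest to the highest of 10 arrays; circles are 60S and squares 40S genes, and open symbols are probe sets that are not the brightest of their gene. Most sit between 1320 and 7130, and 3 have means below the dashed line at 12.8, the highest signal of the trp controls.

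The genes also varied little. On the log2 scale, with 3.1 added to every signal, the SD between the 2 arrays of a diet had a median of 0.119 over the 41 genes, against 0.295 over all 18625 probe sets tested. Dim probe sets vary more, and the 1004 probe sets over a signal of 1000 had a median of 0.148, against 0.118 in the 38 bright ribosomal protein genes. The SD of the 5 diet means had a median of 0.0726 in those 38 genes and 0.129 in the 1004. Rpl5, which with Rpl11 and 5S RNA forms the particle that binds Mdm2, had the smallest SD within diets (0.039). Its signals were 3320 and 3395 on chow, 3194 and 3408 on lard, 3443 and 3426 on olive oil, 3438 and 3521 on coconut fat, and 3389.5 and 3545 on fish oil. Rpl11 spanned 2991 to 3702, with both of these extremes on fish oil arrays.

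What spread there was ran across the genes together, array by array. The deviation of each gene from its own mean over 10 arrays had a median of 0.07 and 0.02 on the chow arrays, -0.09 and -0.05 on lard, -0.05 and 0.04 on olive oil, -0.01 and -0.02 on coconut fat, and -0.08 and 0.17 on fish oil (log2; replicates 1 and 2). The second fish oil array had 40 of 41 genes above their own mean, the first had 8. Between them, 39 of 41 genes were higher on the second, by a median of 0.26 or 1.19-fold, while the median over all probe sets tested was -0.03 and that over the 1004 bright ones 0.12. The brightest probe sets of the 44 genes made up between 1.94% and 2.27% of the summed signal of an array, the highest on that fish oil array. Over 703 pairs of the 38 bright genes, the correlation of their deviations from the diet means across 10 arrays had a median of 0.63 and was positive in 93.5%. The 2 arrays of a diet deviate by equal and opposite amounts, so each diet adds only 1 independent value. The fish oil pair, which differed most, weighs most in it. No such correlation was computed for other bright probe sets. The genes share these arrays, and the value describes them only. The pooled SD of the array medians within diets was 0.0892, and 3 of the 4 high-fat medians in comparison with chow, given next, are smaller than that.

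**Figure D2:**
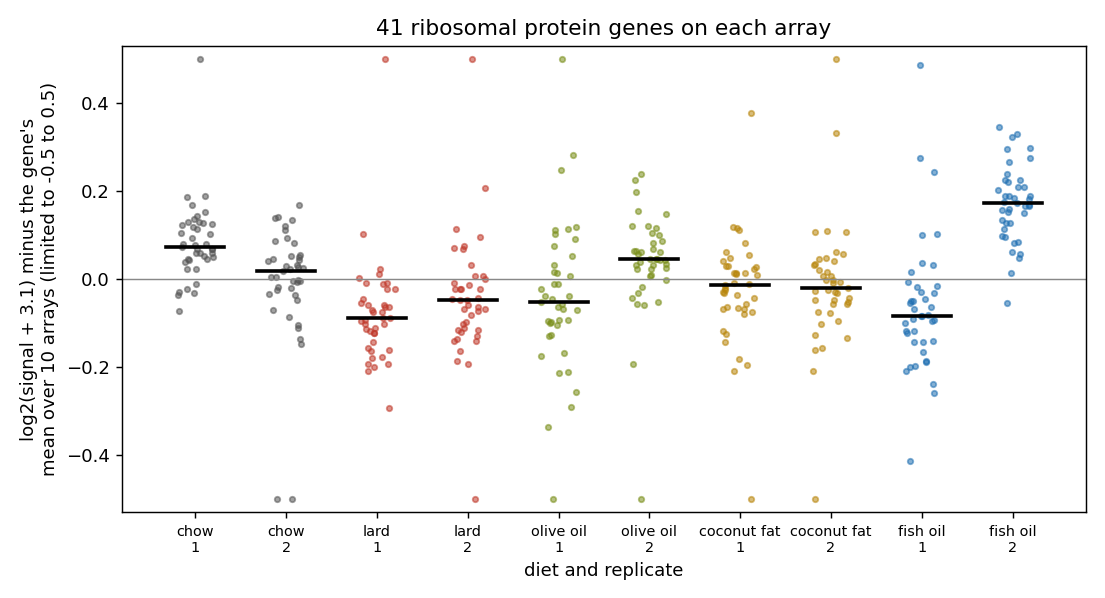
Deviation of 41 ribosomal protein genes (points) from their own mean over 10 arrays, in log2(signal + 3.1), by diet and replicate, with black bars at the median; 11 of 410 points outside -0.5 to 0.5 are drawn at the limit. The second fish oil array lies highest (median 0.17) and the first lard array lowest (-0.09).

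Ribosomal protein signals lay slightly lower on the lard arrays than on chow, and no gene passed the test. Of 41 genes, 35 lay below chow and 6 above, with a median log2 difference of -0.12 (-0.13 in the 60S and -0.11 in the 40S subunit). Over all probe sets tested the median was 0.04 with 44.7% below chow, and over the 1004 bright ones -0.08 with 66.8% below. With quantile normalisation the median was -0.04 with 15 genes above chow, and with arrays set to the same 75th percentile it was -0.18 with 4 above. No probe set passed an adjusted p of 0.05 in limma's moderated test with Benjamini-Hochberg adjustment over all 18625 probe sets, beside 0.0161% of all probe sets, and 2 of 46 had an unadjusted p under 0.05, beside 7.99%. The second lard array also had the highest median signal over all probe sets, 36.8 against 28.7 to 31.9 on the others; without it the ribosomal protein median was -0.13 with 6 genes above chow.

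Rpl3, which lies close to the peptidyl transferase centre, held the smallest p in this comparison, and its 2 probe sets went opposite ways. The probe set 1396049_x_at gave 235 and 270.4 on chow, 447 and 512.5 on lard, 399 and 304 on olive oil, 332 and 315 on coconut fat, and 312 and 343 on fish oil. All 8 high-fat arrays lay above both chow arrays, and the lard arrays were the highest of all. Lard minus chow was 0.92 on the log2 scale (SE 0.18; 1.89-fold), with an adjusted p of 0.28 in limma. The brighter probe set 1371300_at gave 2645 and 2964 on chow, 2339.6 and 2363 on lard, 3269.6 and 2808 on olive oil, 2628 and 2649 on coconut fat, and 2432 and 2906 on fish oil. Here the lard arrays were the lowest of all, with a difference from chow of -0.25 (SE 0.14, adjusted p 0.68 in limma). The letter x in the first ID marks a probe set whose probes can bind other transcripts. Of the 50 probe sets, 6 carry a letter (x, s or a), and these letters differ in meaning.

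**Figure D3:**
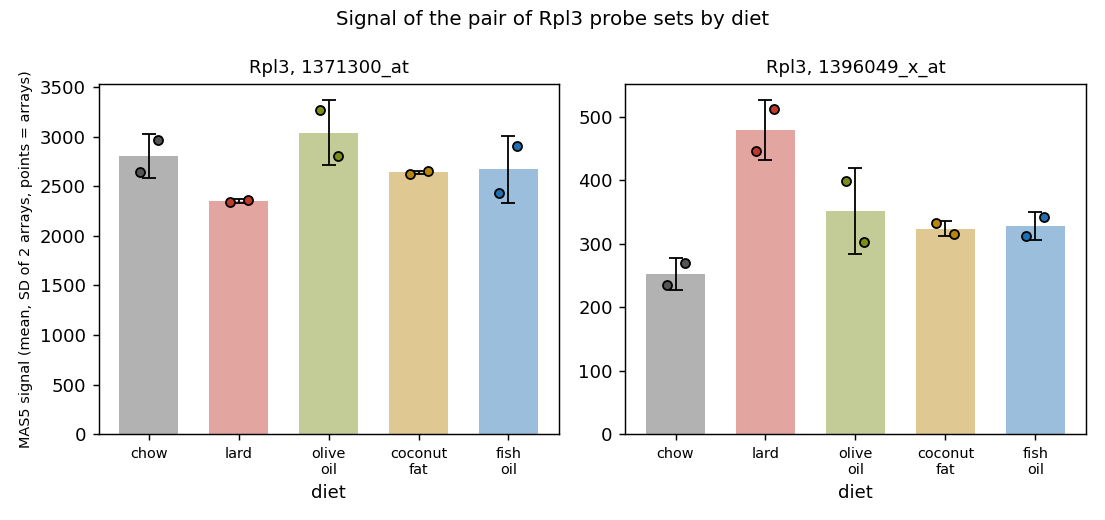
MAS5 signal of the probe sets 1371300_at and 1396049_x_at of Rpl3 by diet, as the mean (bar), SD (line) and single arrays (points) of 2 arrays. Lard is lowest in the left panel (2339.6 and 2363) and highest in the right (447 and 512.5).

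Rpl12, which sits at the base of the stalk that recruits elongation factors, had the next smallest p for lard against chow. It gave 3159.7 and 3263 on chow, 2626 and 2538 on lard, 2506 and 2973 on olive oil, 2508 and 2914 on coconut fat, and 3110.1 and 3628 on fish oil. The 6 arrays of lard, olive oil and coconut fat all lay below the 4 arrays of chow and fish oil. Lard minus chow was -0.32 (SE 0.14, adjusted p 0.621 in limma). Rpl7a, another 60S protein, came next, with 3992 and 3925 on chow and 3427 and 3285 on lard and a difference of -0.24 (SE 0.12, adjusted p 0.638 in limma). The probe set 1388244_s_at of Rpsa, the laminin receptor protein of the 40S subunit, followed at -0.24 (SE 0.13, adjusted p 0.678 in limma).

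Olive oil and coconut fat, set against the same chow arrays, gave smaller medians. For olive oil 27 of 41 genes lay below chow and 14 above, with a median of -0.05. Over all probe sets the median was 0.02 with 48.3% below chow, and over the 1004 bright ones -0.036 with 56.4% below. With quantile normalisation the ribosomal protein median was 0.01 with 23 above, and at a common 75th percentile -0.09 with 11 above. No probe set passed, beside 0.0268% of all, and 1 had an unadjusted p under 0.05, beside 8.38%. That probe set was Rpl3's 1396049_x_at, at 0.46 (SE 0.18, adjusted p 0.522 in limma). Rpl37a, a small zinc-finger protein of the 60S subunit, gave 3909 and 3595 on chow and 2123 and 3505 on olive oil. Its difference of -0.46 (SE 0.22, adjusted p 0.625 in limma) rests on the first olive oil array: with single arrays left out it ran from -0.82 to -0.10.

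For coconut fat 32 of 41 genes lay below chow and 9 above, with a median of -0.06. Over all probe sets the median was -0.015 with 52.1% below chow, and over the 1004 bright ones 0.031 with 42.3% below. Limma called no probe set of any kind, 0% of all, at an adjusted p of 0.05. At an unadjusted p under 0.05 no ribosomal protein probe set stood, beside 5.43% of all. The smallest p values belonged to Rpl3's 1396049_x_at (0.36, SE 0.18), Rpl12 (-0.25, SE 0.14), the dimmer probe set of Rpl7 (-0.51, SE 0.29) and Rpl7a (-0.19, SE 0.12), with adjusted p from 0.945 to 0.963 in limma.

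The fish oil diet gave a median close to that of chow, from 2 arrays that lay on opposite sides of it. Against chow, 21 of 41 genes lay above and 20 below, with a median of 1.90e-04. Over all probe sets the median was -0.01 with 48.5% above chow, and over the 1004 bright ones 0.0094 with 51.6% above. No probe set passed, beside 0.156% of all, and none had an unadjusted p under 0.05, beside 7.63%. Without the first fish oil array the median was 0.14 with 37 of 40 genes above chow, and without the second it was -0.11 with 6 of 41 above. The smallest p values were those of Rpl3's 1396049_x_at (0.37, SE 0.18, adjusted p 0.678 in limma), Rpl21 (0.18, SE 0.15), the dimmer Rps24 probe set (-0.48, SE 0.41) and Rpl39 (0.72, SE 0.63). Rpl39, a very short protein that lines the exit tunnel, was irregular, with 79.4 and 39.8 on chow, 65.6 and 136 on lard, 120.4 and 34.4 on olive oil, 56.4 and 196 on coconut fat, and 98.8 and 90.9 on fish oil. Its 95% interval for fish oil against chow ran from -0.68 to 2.11.

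The mean of the 4 high-fat diets lay below chow in 32 of 41 genes, with a median of -0.06. Over all probe sets the median was -0.0019 with 50.3% below chow, and over the 1004 bright ones -0.019 with 54.9% below. No probe set passed, beside 0.0376% of all, and 1 had an unadjusted p under 0.05, beside 6.66%. It was again Rpl3's 1396049_x_at, at 0.53 (SE 0.14, adjusted p 0.364 in limma); Rpl12, Rpsa's 1388244_s_at and Rpl7a followed at -0.18, -0.16 and -0.13. These comparisons share the chow arrays and are not independent of each other.

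**Figure D4:**
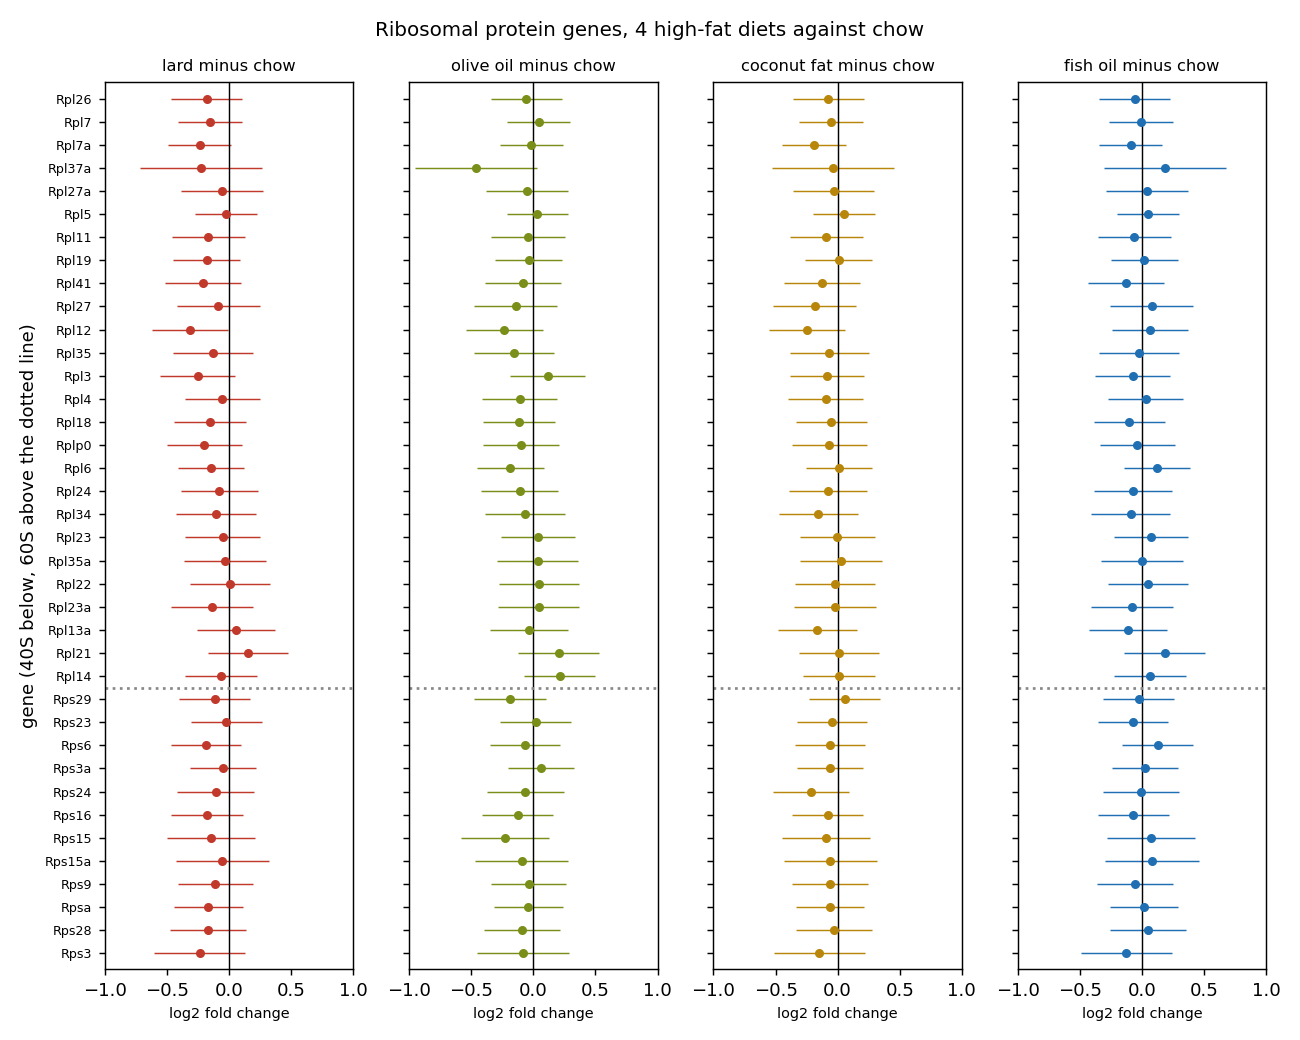
Log2 fold change against chow of the 38 ribosomal protein genes with a mean signal over 1000, for lard, olive oil, coconut fat and fish oil, with 95% intervals from limma; 40S genes are below the dotted line. The points lie close to 0, from -0.46 (Rpl37a, olive oil) to 0.21 (Rpl14, olive oil).

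The intervals bound how large a difference these arrays leave room for. The 95% interval of the fold change lay within 1.5-fold in either direction for 35 of 41 genes with lard, 38 with olive oil, 39 with coconut fat and 38 with fish oil. It lay within 2-fold for 39 of 41 in each of these comparisons. The median SE of the log2 fold change was 0.139.

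Between fats, most ribosomal protein signals lay slightly higher with fish oil than the mean of lard, olive oil and coconut fat, and again no gene passed. Of 41 genes 35 lay above and 6 below, with a median of 0.06 (0.05 in the 60S and 0.08 in the 40S subunit), against -0.02 over all probe sets with 47.4% above, and 0.03 over the 1004 bright ones with 56.3% above. The excess rests on the second fish oil array. Without the first fish oil array the median was 0.19 with 40 of 40 genes above 0, and without the second it was -0.05 with 11 of 41. With quantile normalisation it was -5.43e-04 with 20 of 41 above 0, and at a common 75th percentile 0.11 with 38 above. No probe set passed, beside 0.424% of all, and 3 had an unadjusted p under 0.05, beside 11.8%.

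Those 3 were Rpl12, Rpl37a and Rpl6. Rpl12, with the values given above, differed by 0.33 (SE 0.11; 1.26-fold; adjusted p 0.281 in limma), with both fish oil arrays above the 6 others. Rpl37a gave 4120.4 and 4427 on fish oil against 3208 and 3200.2 on lard, 2123 and 3505 on olive oil, and 3042 and 4379 on coconut fat. Its difference was 0.43 (SE 0.18, adjusted p 0.388 in limma), and the second coconut fat array overlapped with fish oil.

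Rpl6, a 60S protein, gave 2582 and 2799 on fish oil, 2145 and 2325 on lard, 2243 and 2103 on olive oil, and 2390.2 and 2594 on coconut fat. It differed by 0.23 (SE 0.10, adjusted p 0.399 in limma), and the first fish oil array lay below the second coconut fat array. Rps6, the target of the S6 kinases downstream of mTOR, gave 3811 and 3767 on chow, 3298 and 3355 on lard, 3453 and 3792 on olive oil, 3490.2 and 3770.0 on coconut fat, and 3775 and 4527 on fish oil. It differed by 0.23 (SE 0.10, adjusted p 0.426 in limma), and its first fish oil array lay within the range of the other diets. A phosphorylation state of Rps6 is not visible on these arrays.

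Coconut fat against the mean of lard and olive oil gave a median of 0.02, with 27 of 41 genes above 0 and 14 below, while the 1004 bright probe sets had a median of 0.09 with 71.5% above. The sign of this median followed the scaling, at -0.07 with 9 genes above after quantile normalisation and 0.09 with 36 above at a common 75th percentile. No probe set of any kind passed, 0% of all, and 1 ribosomal protein probe set had an unadjusted p under 0.05, beside 6.71%. It was the dimmer probe set of Rpl7, 1375788_at, with 62.6 and 87.5 on coconut fat against 122 and 150.1 on lard and 88.4 and 128 on olive oil (-0.68, SE 0.25, adjusted p 0.7 in limma). Rpl7's brighter probe set gave 3628 and 3828 on coconut fat, between lard (3531 and 3424) and olive oil (4019 and 3935). Rpl3's 1396049_x_at (-0.33), Rps29 (0.21) and Rpl6 (0.18) came next.

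Olive oil against lard gave a median of 0.06, with 29 of 41 genes above 0. Over all probe sets tested the median was -0.025 with 46.6% above 0, and over the 1004 bright ones 0.038 with 60.2% above. No probe set of any kind passed, 0% of all, and 2 ribosomal protein probe sets had an unadjusted p under 0.05, beside 6.23%. Both were Rpl3's, and they differed in sign: 0.37 (SE 0.14, adjusted p 0.744 in limma) for the brighter 1371300_at, and -0.455 (SE 0.18, adjusted p 0.748 in limma) for 1396049_x_at. In both probe sets the olive oil arrays did not overlap with the lard arrays. Rpl14 gave 1419 and 1536 on olive oil against 1215 and 1216 on lard (0.28, SE 0.13), and Rpl7a 3993 and 3844 against 3427 and 3285 (0.22, SE 0.12).

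Across all 5 diets at once, limma's F-test passed no ribosomal protein probe set, beside 0.14% of all, and 1 had an unadjusted p under 0.05, beside 9.4%. It was Rpl3's 1396049_x_at (adjusted p 0.284 in limma), followed by Rpl12 with an adjusted p of 0.577.

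By role, the stalk protein, the laminin receptor protein and the p53-linked copy held no probe set that passed. Rplp0, the base of the stalk and a common reference gene in quantitative PCR, gave 2607 and 2615 on chow, 2159 and 2395 on lard, 2350.4 and 2525 on olive oil, 2451 and 2529 on coconut fat, and 2273 and 2854 on fish oil. Lard minus chow was -0.20 (SE 0.14, adjusted p 0.771 in limma), and the fish oil arrays spanned the values of every other diet except the first lard array. Rpsa had 3 probe sets, with mean signals of 2148, 960.3 and 348.6. Its main probe set gave 2127 and 2318 on chow, 1854 and 2112 on lard, 2111 and 2210.2 on olive oil, 2186 and 2075 on coconut fat, and 2199 and 2291 on fish oil, so the chow range overlapped with every diet except lard. Rps27l ran from 128 to 199 over all arrays, and from 128 to 196 between the 2 fish oil arrays alone.

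Genes with and without the 5′ TOP motif, as searched here, were set side by side without a test. Those without it include genes, such as Rps23 and Rpl27a, whose long run has a T at the annotated start. For lard minus chow the median was -0.105 in 11 tested genes with the motif and -0.128 in 26 without, and for fish oil against the other 3 fats 0.087 and 0.058. Other genes known to carry the motif, such as elongation factors and Rack1, a scaffold on the 40S subunit, were lower than chow in 12 of 14 with lard, 13 with olive oil, 13 with coconut fat and 8 with fish oil, with medians of -0.2, -0.19, -0.089 and -0.05. Over all probe sets tested 44.7%, 48.3%, 52.1% and 51.5% lay below chow, with medians of 0.043, 0.016, -0.015 and -0.012. None of the 14 genes passed in any of the 9 tests, beside 0% to 0.424% of all probe sets. Rack1 gave 1631 and 1538 on chow, 1185 and 1385 on lard, 1224 and 1461 on olive oil, 1429.9 and 1515 on coconut fat, and 1441 and 1838 on fish oil, so that its second fish oil array was highest too.

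The rest of the translation machinery also held no probe set that passed in any of the 9 tests, beside 0% to 0.424% of all probe sets. For fish oil against the mean of the other 3 fats, 47.4% of all probe sets tested lay above 0, with a median of -0.02. Mitochondrial ribosomal proteins, which belong to a separate ribosome, lay above 0 in 64 of 73 genes with a median of 0.21. Mrpl30 among them gave 561 and 555 on fish oil and 313 to 417 on the 8 other arrays (0.63, SE 0.12, adjusted p 0.0519 in limma). Ribosome assembly genes lay above 0 in 44 of 57 with a median of 0.22, led by the nucleolar GTP-binding protein Gnl3 at 0.72 (SE 0.16, adjusted p 0.0929 in limma). Initiation factors lay above 0 in 27 of 32 (median 0.16), elongation and release factors in 8 of 11 (0.069), RNA polymerase I genes in 6 of 13 (-0.024), and genes of growth signalling to ribosomes in 9 of 23 (-0.064). Of the last, Myc, which drives ribosome production, differed by 1.42 (SE 0.38, adjusted p 0.17 in limma) and the mTOR inhibitor Ddit4 by -0.83 (SE 0.21, adjusted p 0.136 in limma). Myc gave 112 and 303 on fish oil and 35.1 to 114 on the 6 arrays of the other fats, so the first fish oil array lay within their range. Without the second fish oil array, a comparison chosen after seeing the data, its difference was 0.71, or 1.63-fold in place of 2.67-fold. The 3 ribosome-linked genes outside the naming rule (Rack1, Rpl26l1 and Rpl7l1) were all above 0, with a median of 0.26. Against chow, fish oil lay above 0 in 48.5% of all probe sets (median -0.012). It did so in 61 of 73 mitochondrial ribosomal protein genes (0.18), 43 of 57 assembly genes (0.14) and the 3 ribosome-linked genes (0.039). The counts were 18 of 32 initiation factors (0.029), 6 of 11 elongation and release factors (0.023), 6 of 13 RNA polymerase I genes (-0.0073) and 8 of 23 growth signalling genes (-0.11).

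For lard against chow, 44.7% of all probe sets tested lay below 0, with a median of 0.043. Initiation factors lay below 0 in 27 of 32 genes with a median of -0.17, and elongation and release factors in 8 of 11 (-0.15). Ribosome assembly genes were below 0 in 34 of 57 (-0.068) and mitochondrial ribosomal proteins in 43 of 73 (-0.033). RNA polymerase I genes lay below 0 in 6 of 13 (0.0079), growth signalling genes in 12 of 23 (-0.011), and the 3 ribosome-linked genes in all (-0.31).

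The defining markers of hepatocytes were bright on all arrays. No marker passed in any of the 9 tests, beside 0% to 0.424% of all probe sets. Over all probe sets tested 51.5% lay below 0 for fish oil against chow and 44.7% for lard against chow. For fish oil against the other 3 fats this share was 52.6%. The 7 hepatocyte genes had mean signals from 2060 to 11000, summing to between 48570 and 57830 per array. They were below 0 in 2 of 7 for fish oil against chow (median 0.014) and in 4 of 7 for lard against chow (-0.016). Against the other 3 fats, fish oil had 5 of 7 below 0 (-0.013). For lard against chow, dimmer probe sets of Cps1 and Apob gave -0.47 (SE 0.12, adjusted p 0.421 in limma) and -0.62 (SE 0.19, adjusted p 0.479 in limma). For fish oil against chow, Kupffer cell markers were lower in 6 of 6 genes (median -0.43, summed signal 2230.0 and 2360.0 against 3022 and 3172). Lymphocyte markers were lower in 3 of 3 tested genes (-0.78), and erythroid markers in 3 of 3 (-0.44, sums 4290.0 and 5790.0 against 6140.0 and 7499). The lymphocyte sum, 124 and 115 against 169 and 216, covers 5 genes, of which 3 were tested. Its median is that of Ptprc, with 61.6 and 47.7 on fish oil and 86.6 and 104.3 on chow. Cd2 was dim, at 8.2 and 14 on fish oil and 26.8 and 28.4 on chow. Stellate, endothelial, cholangiocyte and proliferation markers had medians of 0.0035, 0.016, -0.18 and 0.7 over 6, 4, 2 and 3 genes. The 0.7 is the value of Ccnb1 (SE 0.678), with 28.8 and 11.3 on chow and 33.6 and 30.1 on fish oil. Cdk1 gave 1.3 and 15.8 on chow and 28.5 and 22.7 on fish oil. Signals of both genes were dim, on chow near the trp controls' highest, 12.8. The bright Pcna gave 375 and 378 on chow and 323 and 459 on fish oil. Mki67 and Top2a, too dim for the tests, went opposite ways. Mki67 gave 10.3 and 1.1 on chow and 2.1 and 6.1 on fish oil. Top2a gave 4.2 and 2.5 on chow and 30.4 and 16.6 on fish oil. For lard against chow, where ribosomal protein signals lay lower, Kupffer cell markers were below 0 in 5 of 6 genes (median -0.11; summed signal 3120.0 and 2551 on lard), endothelial markers in 3 of 4 (-0.24), cholangiocyte markers in 2 of 2 (-0.44) and stellate cell markers in 4 of 6 (-0.12). Among the last, the matrix proteoglycan Dcn gave 115 and 148 on chow and 34.6 and 44.3 on lard (-1.66, SE 0.27, adjusted p 0.145 in limma). Col1a1, from the same stellate cell list, went the other way (1.16, SE 0.36, adjusted p 0.479 in limma). It gave 27 and 33.6 on chow and 62.2 and 81.7 on lard. Lymphocyte markers were below 0 in 1 of 3 genes (0.15), erythroid markers in 0 of 3 (0.08) and proliferation markers in 2 of 3 (-0.037). For fish oil against the mean of the other 3 fats, where ribosomal protein signals lay higher, Kupffer cell markers were below 0 in 6 of 6 genes (-0.34), lymphocyte markers in 3 of 3 (-0.77) and erythroid markers in 3 of 3 (-0.61). The Kupffer cell sum there was 2230.0 and 2360.0 on fish oil against 2530.0 to 3413 on the other fats. Stellate cell markers had a median of -0.026, endothelial 0.16, cholangiocyte 0.31 and proliferation markers 0.25. On the second fish oil array, where ribosomal protein signals were highest, the Kupffer cell and erythroid sums were higher than on the first and the lymphocyte sum was lower. Their part in the ribosomal protein values was not tested.

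**Figure D5:**
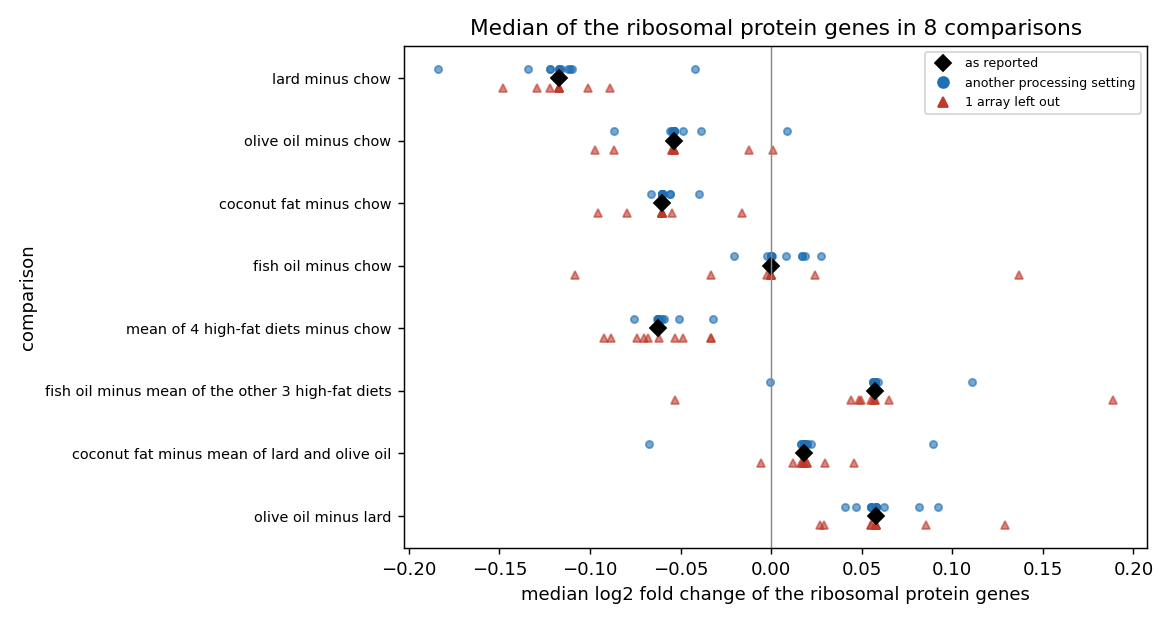
Median log2 fold change of the ribosomal protein genes in 8 comparisons, as reported (diamonds), under other processing settings (circles) and with 1 array left out (triangles). Leaving out 1 fish oil array moved the median furthest, from -0.05 to 0.19 against the other 3 high-fat diets and from -0.11 to 0.14 against chow.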

How the data were processed

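RNA of 10 rat liver samples was measured on Affymetrix arrays, and the deposited values are signal intensities per probe set, which the authors made with MAS5 (per the submitters' processing notes), and the values show that the mean signal of each array, trimmed by 2% at each end, is 100. No MAS5 version is given in the sources used here. From these intensities, log2(signal + 3.1) was taken, 3.1 being the 10th percentile of all values. Of 31042 probe sets (57 control rows left out), the lowest 40% by mean log2 signal were dropped, leaving 18625. limma 3.58.1 in R 4.3.3 fitted 1 mean per diet with an intensity trend (5 residual and 5.963 prior degrees of freedom). It gave 8 contrasts and an F-test, with Benjamini-Hochberg adjustment over all 18625 probe sets. The code was tested on simulated data.

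Symbols came from the platform annotation; 20826 probe sets have 1 symbol, 436 several and 9780 none. Gene IDs matched the RefSeq table for 42 of 44 genes. A name was printed for the 4 smallest p-values in each test, the highest and lowest mean signals, genes with 3 or more probe sets, and the stalk, 5S-particle, Rps6, Rpsa and copy genes; from the other lists, up to 2 genes with the smallest p. The other lists were ribosome-linked genes outside the rule, mitochondrial ribosomal proteins, ribosome assembly, RNA polymerase I, elongation and initiation factors, other 5′ TOP genes, growth signalling, and markers of 7 cell types and of proliferation. The members and lists were chosen with earlier results of these data known. Same-numbered arrays of different diets did not deviate together, so the main fit has no replicate block. Alternatives changed the scaling, offset, filter, variance trend, arrays in the fit, threshold, probe set choice and replicate block.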

Additional observations from a re-analysis of the deposited data

How the results depend on the processing

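No ribosomal protein probe set passed in any of the 9 tests under the main setting, the 12 other settings run (11 for the F-test and for the mean of 4 high-fat diets) or with any of the 10 arrays left out, where a lone remaining array is assumed to vary like the other diets. None of the 32 comparisons of named genes changed sign or passed under the 8 or 9 other settings run for each, or with an array left out. With 1 array left out, the median for fish oil minus chow ran from -0.108 to 0.137, and for fish oil minus the other 3 fats from -0.0528 to 0.189; both ends of each came from leaving out a fish oil array, and the cause was not tested. Other medians moved by less than the spread between arrays of a diet, 0.0892, though the scalings changed the sign for olive oil and for fish oil against chow, for fish oil against the other 3 fats and for coconut fat against lard and olive oil. No scaling moved the median of all probe sets by over 0.1. With the replicate block, which does not pair the arrays (deviations of same-numbered arrays correlated from -0.033 to 0.076, 0 of 10 pairs over 0.1), 0 probe sets passed; each diet has 1 array of each number, so the block cannot move a fold change. The 2 arrays per diet limit what can be called: the median SE was 0.139, and Rpl3's 1396049_x_at at 1.89-fold on lard did not pass.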

Other observations

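Another 33 probe sets carry a ribosomal protein symbol beside other symbols in the platform annotation, and were left out of the values above. Their mean signals had a median of 2440 and ran from 120 to 5280, and their SD between arrays of a diet had a median of 0.132 on the log2 scale. Adding them, an alternative chosen after seeing the data, gave 79 probe sets, of which limma passed 0 in each of the 9 tests. At an unadjusted p under 0.05 they numbered 3 for lard (3.8%, beside 7.99% of all probe sets), 1 for olive oil (1.27%, beside 8.38%), 0 for coconut fat (beside 5.43%) and 1 for fish oil (1.27%, beside 7.63%), each against chow. Fish oil against the other 3 fats had 6 (7.59%, beside 11.8%). The medians then ran over 74 probe sets, the brightest of each of the 41 tested genes and the 33 added. For lard minus chow the median was -0.11 with 9 of 74 above 0. That of fish oil minus the other 3 fats was 0.06, with 61 of 74 above 0.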
